A study of Mus musculus with 20 samples.

Results

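The comparison described here set the 4 GRP3 libraries of the series against its 4 NSC libraries, paired by batch, with batch 3 read apart from batches 1, 2 and 4. The 8 libraries were chosen by their population and batch number, from 20 libraries of 5 populations. Cells were taken from the periventricular zone of Swiss Webster mice at postnatal day 5, with all pups of a litter, males and females, pooled before sorting. GRP3 (glial-restricted progenitor 3) cells were sorted as CD140a+ and NG2+, without CD133 and with low or no CD15 (LeX), and NSC (neural stem cell) cells as CD133+ and CD15+ from the gate without CD140a and NG2. No transgene or treatment was named for either group. Levels are RPKM, which relate the reads of a gene to its length and to the reads of the whole library, as the authors computed them, and a library is named by its population and batch, so that GRP3 3 is the GRP3 library of batch 3. Of 45705 genes in the table, 17214 reached 1 RPKM in at least 4 of the 8 libraries and were tested.

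The subventricular zone of the newborn forebrain holds neural stem cells, their dividing progeny and, at the ventricle wall, multiciliated ependymal cells. Oligodendrocyte progenitor cells (OPCs) are made there under the bHLH factors Olig1 and Olig2 and the HMG-box factor Sox10. They divide in response to PDGF through its alpha receptor, which is the antigen CD140a, and they carry the proteoglycan NG2 on their surface. CD133 (prominin 1) is found on neural stem cells and also on ependymal cells, whose motile cilia are built under the transcription factor Foxj1 with its partners of the RFX family. The gates therefore separate an antigen profile of OPCs from one that stem and ependymal cells share.

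Both libraries of batch 3 stood apart from the other 6. Globin and other erythrocyte genes summed to 228440 RPKM in NSC 3 and 246191 in GRP3 3, and to at most 694 elsewhere, as the plot of marker sums shows. Microglial genes summed to 8384 and 9161 RPKM there and to at most 228 elsewhere. The number of the 20 genes that reached 1 RPKM did not set batch 3 apart. It was 16 in NSC 3 and 17 in GRP3 3, 12 to 14 in the libraries of batches 1 and 2, and 20 in both libraries of batch 4. The myeloid genes C1qa, Ctss, Tyrobp and Trem2 were among the high members, with Trem2 at 275 RPKM in NSC 3 and 310 in GRP3 3 against at most 14.9 elsewhere. Cx3cr1, P2ry12, Tmem119, Siglech and Gpr34, named after their values were seen, were at 0.0264 to 1.4 RPKM in the batch 3 libraries. Lung epithelial genes, led by the airway secretory genes Scgb1a1 and Bpifa1, summed to 1846 and 2008 RPKM in batch 3 and to at most 38.3 elsewhere. Alveolar macrophage genes summed to 1526 and 1759 RPKM there against at most 42.3. Batch 4 stood apart in another way, with 30705 genes at 1 RPKM or more in NSC 4 and 34536 in GRP3 4 against 13074 to 15501 in the other 6 libraries. The transcript Gm10801 alone took 318073 RPKM of GRP3 4 and 106017 of NSC 4. Read totals were not given in the sources used here. Steps between low values placed the depth of the libraries at 0.552 to 3.2 times that of GRP3 1, with both batch 3 libraries highest, though in batch 3 these estimates rest on 125 and 160 genes.

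**Figure D1:**
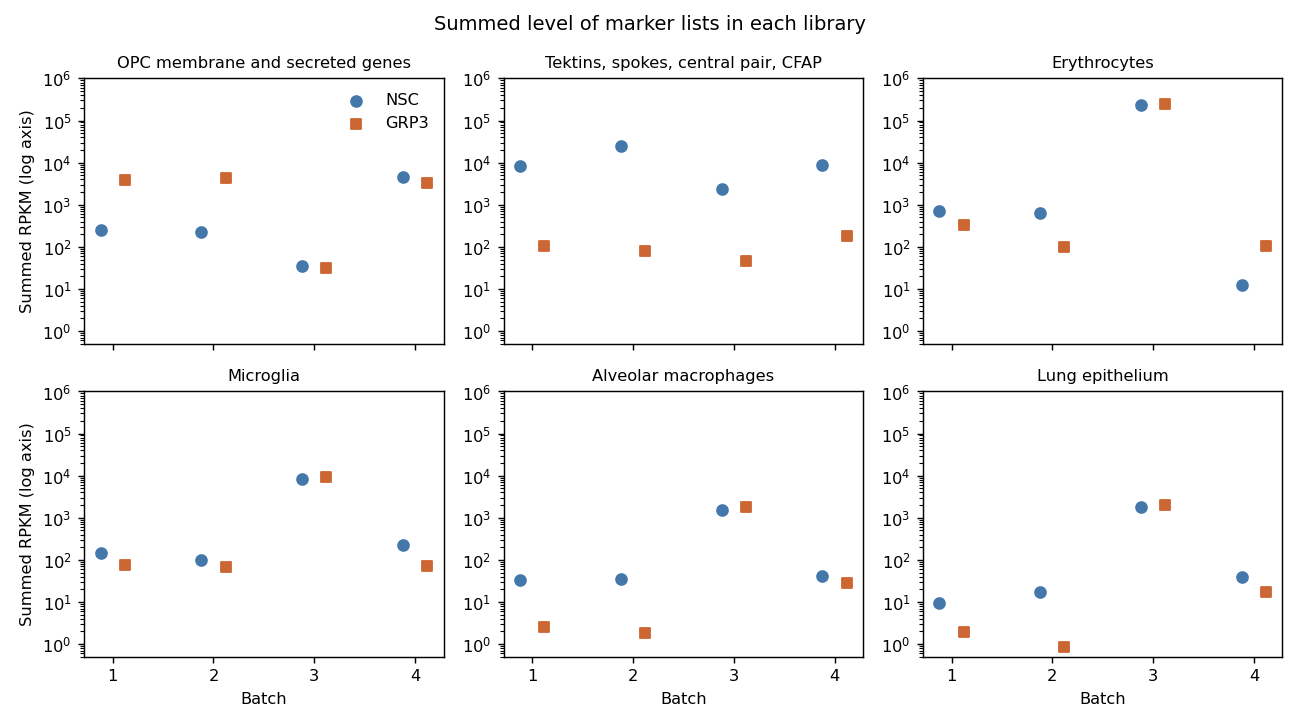
Summed RPKM (log axis) of 6 marker lists in the NSC (blue circles) and GRP3 (orange squares) library of each batch, 1 library per point. In batch 3 the OPC list is at 34.4 RPKM in NSC and 31.5 in GRP3 while the erythrocyte, microglial, alveolar macrophage and lung lists are high in both populations. The ciliary list is higher in NSC in every batch.

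Over all 4 batches, 9 genes were higher in GRP3 (0.0523% of those tested) and 414 were lower (2.41%), at an adjusted p under 0.05 in limma's moderated test with batch as a block. Without the pair of batch 3, 213 genes were higher (1.24%) and 665 lower (3.86%). Of the 9 rises in 4 batches, 8 were among the 213, and of the 414 falls, 387 were among the 665, which is 58.2% of the longer list. The falls were thus largely there with batch 3 included, while most of the rises passed only without it. Batches 1 and 2 alone gave 0 calls in either direction. All 213 rises and 665 falls kept their sign there, which is no support, because batches 1 and 2 helped to select these genes. Without batch 1 or without batch 2, 66 and 73 rises and 388 and 251 falls were called. P-values measure how the GRP3 minus NSC difference within a batch varied between these batches of pooled litters, with variances moderated across genes. In bulk libraries, fewer cells of a type and less RNA per cell cannot be told apart.

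The filter on low values also bore on which genes could be called. A gene at 1 RPKM or more in GRP3 1, 2 and 4 and below 1 in all 4 NSC libraries was tested only if it also reached 1 in GRP3 3. There were 137 genes of the first kind, and 6 of them were tested. A stricter pattern the other way, at 1 RPKM or more in all 4 NSC libraries and below 1 in all 4 GRP3 libraries, was found in 72 genes. All 72 were tested, which the filter fixes in advance, so these counts cannot be set against those of the first pattern. The glutamate receptor partner Neto1 was among the genes left out, at 27.5, 35, 0.0922 and 5.39 RPKM in GRP3 1 to 4 and 0.0137 to 0.792 in NSC. The adhesion molecule Dscam was likewise untested, at 15.6, 10.1, 0.0217 and 10.8 RPKM in GRP3 and 0.0145 to 0.753 in NSC. With the filter set on the 6 libraries of batches 1, 2 and 4 instead, a choice made after the data were seen, 315 genes were higher and 765 lower, of which 39 and 17 had not been tested before.

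The genes of the sorting antigens were the check of the gates. Pdgfra (CD140a, chromosome 5, 75152292-75198215 in GRCm38) was at 512, 803, 3.41 and 171 RPKM in GRP3 1 to 4 and at 3.81, 0.731, 1.15 and 3.15 in NSC 1 to 4. GRP3 1, 2 and 4 stood far above every NSC library, and GRP3 3 lay below NSC 1. The difference on the log2(RPKM + 1) scale was 6.99 ± 0.72 (SE; 95% interval 5.30 to 8.68, adjusted p = 0.00515) in batches 1, 2 and 4, the largest rise there. With batch 3 it was 5.50 ± 1.12 (adjusted p = 0.0551). Cspg4, which encodes NG2 (chromosome 9, 56865033-56899870), was at 93.2, 80.9, 0.245 and 11.7 RPKM in GRP3 and 0.405, 0.438, 0.197 and 1.12 in NSC. It differed by 4.83 ± 0.80 without batch 3 (adjusted p = 0.019) and by 3.64 ± 0.99 with it (adjusted p = 0.133). In batch 3, then, neither antigen gene of the gate reached 4 RPKM in the library labelled GRP3, and the label was not borne out by these transcripts.

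Prom1, which encodes CD133, was at 84.2, 46.1, 10 and 9.56 RPKM in NSC 1 to 4 and at 10.9, 8.92, 0.991 and 12.9 in GRP3 1 to 4. It was lower in GRP3 in batches 1, 2 and 3 and slightly higher in batch 4, and the 4-batch difference of -1.79 ± 0.60 did not pass the test (adjusted p = 0.188). CD15 is a carbohydrate, made by fucosyltransferases. Fut9, the main enzyme for it in brain, was at 13.2, 14.9, 0.08 and 7.94 RPKM in GRP3 and 1.28, 0.876, 0.137 and 2.3 in NSC, and Fut4 stayed at or below 2.11 RPKM in all 8 libraries. The Fut9 difference of 2.39 ± 0.58 in batches 1, 2 and 4, positive in each, missed the threshold (adjusted p = 0.0637). Of the 5 antigen genes, none was called over 4 batches and 2 rose without batch 3, where 1.24% of all tested genes did.

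**Figure D2:**
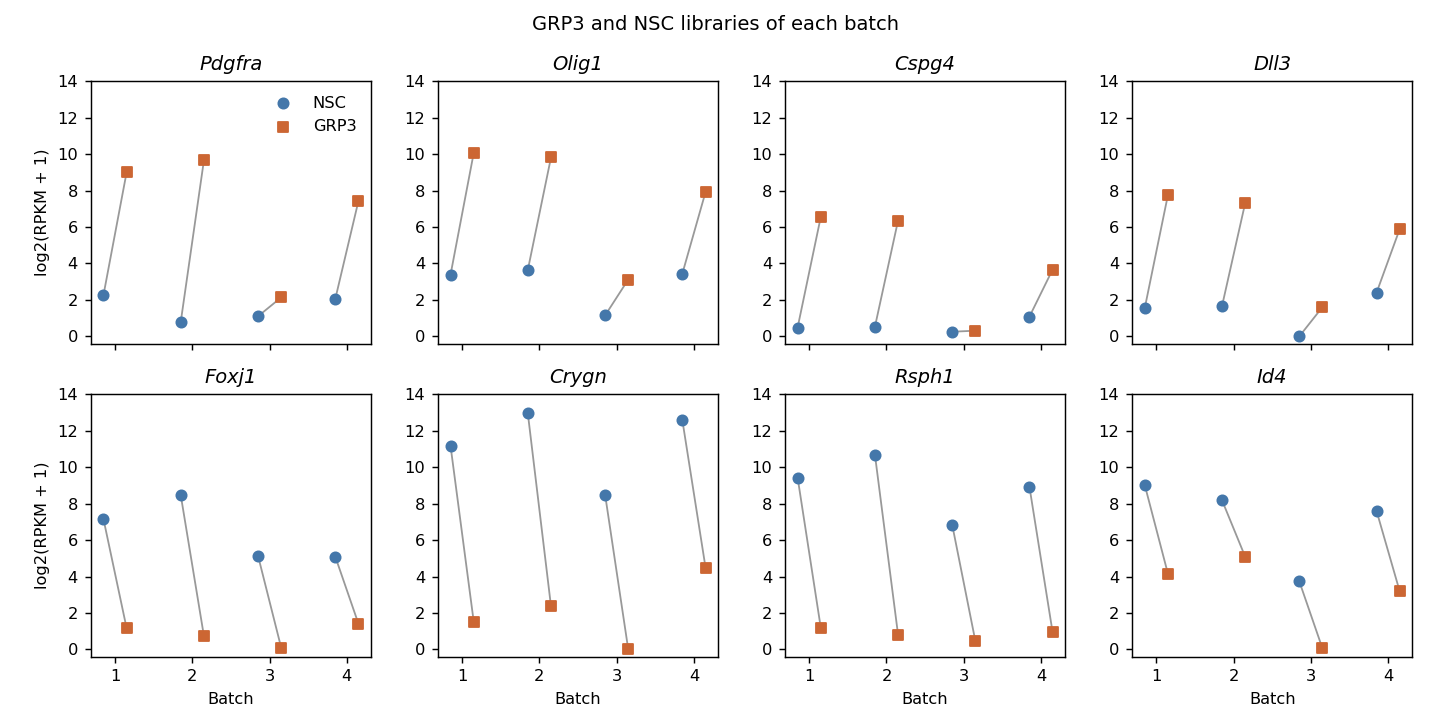
Level of 8 genes, as log2(RPKM + 1), in the NSC (blue circles) and GRP3 (orange squares) library of each batch, joined within a batch. In the upper row Pdgfra, Olig1, Cspg4 and Dll3 are high in GRP3 1, 2 and 4 and low in GRP3 3. In the lower row Foxj1, Crygn, Rsph1 and Id4 are lower in GRP3 in all 4 batches.

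OPC transcription factors were higher in GRP3 in batches 1, 2 and 4. Of the 18 tested, 6 rose there and 1 over 4 batches (1.24% and 0.0523% of all tested genes did), and none fell. Their median difference was 2.98, 2.75 and 1.34 in batches 1, 2 and 4 and 0.02 in batch 3, where the medians over all tested genes were 0.24, 0.06, 0.08 and -0.05. Olig1 (chromosome 16, 91269772-91271933), the call that held over 4 batches, was at 1064, 897, 7.7 and 240 RPKM in GRP3 and 9.47, 11.5, 1.22 and 9.88 in NSC. Each GRP3 library was above the NSC library of its batch, although GRP3 3 lay below the NSC libraries of the other batches. The difference was 4.82 ± 0.76 (adjusted p = 0.0239). Olig2, which specifies the lineage, was at 703, 1025, 1.18 and 118 RPKM in GRP3 and 8.92, 3.06, 0.144 and 4.67 in NSC (6.18 ± 0.73 without batch 3, adjusted p = 0.00751, and 4.86 ± 1.02 with it, adjusted p = 0.0613). Sox10, which maintains oligodendrocyte identity, was at 185, 92.2, 1.19 and 55.9 RPKM in GRP3 and 0.884, 0.135, 0.0061 and 7.9 in NSC. Sox8, its close relative, Nkx2-2, a homeodomain factor of the lineage, and the zinc finger factor Myt1 also rose without batch 3, by 3.61, 3.78 and 4.50. Sox6, which holds OPCs immature, was higher in GRP3 in batches 1, 2 and 4 and did not pass (2.14 ± 0.62, adjusted p = 0.0994).

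Genes for OPC membrane and secreted proteins moved with these factors. Of 26 tested, 14 rose in batches 1, 2 and 4 and 1 over 4 batches (1.24% and 0.0523% of all tested genes did). In each of batches 1, 2 and 4, 24 of the 26 were higher in GRP3, as were 26.6% of all tested genes. The median difference of the list was 3.91, 3.68, 0.05 and 2.16 in batches 1 to 4. Lhfpl3 (chromosome 5, 22746059-23275597), a tetraspan protein typical of OPCs, was at 307, 517, 1.17 and 134 RPKM in GRP3 and 4.05, 1.45, 0 and 2.64 in NSC. It was higher in GRP3 in every batch, with a 95% interval of 2.74 to 7.26 for the difference (adjusted p = 0.0472), although GRP3 3 overlapped the NSC range. Gpr17, a receptor of committed progenitors, was at 111, 142, 0.0392 and 35 RPKM in GRP3 and 2.56, 0.196, 0 and 1.64 in NSC. Cntn1, an adhesion molecule, was at 137, 228, 0.602 and 241 RPKM in GRP3 and 6.36, 1.57, 0.323 and 7.95 in NSC. Both rose without batch 3 (5.21 ± 0.71 and 5.15 ± 0.61) and were near 0 RPKM in both batch 3 libraries. The remaining calls were Pdgfra, Cspg4, Matn4, C1ql1, Tnr, Nxph1, Neu4, Pcdh15, Megf11, Kcnd2 and Sema5a, with rises of 2.06 to 6.99. The proteoglycan gene Ncan departed from the list in batch 4, at 4181 RPKM in NSC 4 and 1697 in GRP3 4 against at most 30.1 in the other 6 libraries, and made up most of the list's sum there. Ptprz1, the receptor phosphatase, was at 333, 509, 1.1 and 164 RPKM in GRP3 and at 105, 39.9, 3.65 and 134 in NSC, and did not pass (1.86 ± 0.70 without batch 3, adjusted p = 0.173).

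Of 18 tested genes of later oligodendrocytes, 3 rose without batch 3 (1.24% of all tested genes did) and none fell, and the median differences were 0.20, 1.80, 0.00 and -1.19 in batches 1 to 4. Bcas1, which marks newly forming oligodendrocytes, was at 175, 179, 0.641 and 39 RPKM in GRP3 and 13.5, 2.47, 0.276 and 3.17 in NSC (4.19 ± 0.64 without batch 3, adjusted p = 0.0146). The calcium release channel gene Itpr2 was at 27.7, 19.8, 7.07 and 9.75 RPKM in GRP3 and 1.5, 0.948, 6.24 and 1.35 in NSC, and the lipid-related gene Serinc5 at 45.9, 54, 2.79 and 17 against 7.44, 4.04, 1.69 and 2. These 3 were above every NSC library of batches 1, 2 and 4 in the GRP3 libraries of those batches. The myelin gene Mbp was at 16.4, 13.3, 9.56 and 10.3 RPKM in GRP3 and 14.5, 3.19, 9.4 and 49.5 in NSC. Its ranges overlapped between the populations, with NSC 4 highest, and the fitted difference over 4 batches was -0.05 (adjusted p = 0.979).

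Among signalling genes, the Notch ligand Dll3 (chromosome 7, 28293553-28302238), which acts inside the cell, was at 213, 157, 2.05 and 58.1 RPKM in GRP3 and 1.91, 2.15, 0 and 4.26 in NSC. It rose over 4 batches (4.24 ± 0.77, adjusted p = 0.038), and GRP3 3 again lay within the NSC range. It was the only one of 17 Notch pathway genes to pass in either fit. The ligand Dll1 was at 42.8, 66.2, 0.538 and 19.9 RPKM in GRP3 and 2.36, 2.34, 0.35 and 11 in NSC (2.95 ± 0.77 without batch 3, adjusted p = 0.0762). The target gene Hes5 did not separate the populations, at 59.2, 59.3, 1.66 and 11 RPKM in GRP3 and 31.9, 39.8, 1.32 and 25.1 in NSC. Of 19 BMP pathway genes, the ligand Bmp7 rose without batch 3 (3.33 ± 0.71, adjusted p = 0.0431) and Id4, an inhibitor of bHLH factors, fell. Over all tested genes, 1.24% rose and 3.86% fell without batch 3, and 0.0523% rose and 2.41% fell over 4 batches.

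ERK-induced transcription factors and feedback inhibitors, which growth factor receptors switch on, were called in 5 of 17 cases without batch 3, all of them rises. Over 4 batches 0 of 17 were called. Of all tested genes, 1.24% rose without batch 3 and 0.0523% over 4 batches. The 5 rises were the ETS factor Etv1, the receptor signalling inhibitors Spry1, Spry4 and Spred3, and the cyclin Ccnd1. Spry1 was at 111, 154, 1.02 and 21.2 RPKM in GRP3 and 9.36, 2.17, 1.09 and 2.15 in NSC (3.96 ± 0.68 without batch 3, adjusted p = 0.0217). GRP3 and NSC did not overlap outside batch 3, and in batch 3 they differed by less than 0.1 RPKM. Etv5 showed differences of the same sign in every batch and missed the threshold (2.72 ± 0.67 without batch 3, adjusted p = 0.0647).

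Synaptic organisers, receptors and channels gave 13 rises of 38 genes tested without batch 3, no fall, and no call over 4 batches. Over all tested genes, 1.24% rose and 3.86% fell without batch 3, and 0.0523% rose and 2.41% fell over 4 batches. The AMPA receptor subunit Gria2 was at 134, 179, 0.802 and 79 RPKM in GRP3 and 5.51, 4.4, 0.625 and 10.2 in NSC (4.09 ± 0.60 without batch 3, adjusted p = 0.0128). Gria3 and Gria4, the NMDA receptor subunit Grin3a, the kainate receptor subunit Grik1, the metabotropic receptor Grm5 and the synaptic adhesion proteins Lrrtm1, Lrrtm3, Lrrtm4 and Slitrk2 were among the other calls. Mature neuron genes gave 0 calls of 9 in either fit, and their summed level was 62.5 to 108 RPKM in GRP3 1, 2 and 4 and 22.1 to 42.8 in the NSC libraries of those batches. Of 17 genes of transit amplifying cells and neuroblasts, 2 rose without batch 3, where 1.24% of all tested genes did. Gsx1, a homeobox factor, was at 39.9, 33.6, 0 and 14.7 RPKM in GRP3 and at most 1.79 in NSC, and the neuroblast gene Dcx was at 33.2, 30.7, 0.124 and 10.9 against at most 2.74.

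Genes of DNA replication and mitosis were higher in GRP3 by a median of 0.94, 1.33 and 0.53 in batches 1, 2 and 4 and differed by -0.11 in batch 3. Only the helicase subunit Mcm5 passed, of 26 tested and without batch 3 only, where 1.24% of all tested genes rose. It was at 20.1, 15.2, 2.82 and 7.44 RPKM in GRP3 and 1.55, 1.12, 3.17 and 1.17 in NSC (2.65 ± 0.56, adjusted p = 0.041). Mki67, the marker of dividing cells, was at 6.32, 3.52, 2.88 and 7.83 RPKM in GRP3 and 0.436, 0.64, 2.66 and 1.44 in NSC and fell short (1.89 ± 0.45, adjusted p = 0.0569). Top2a was at 59.1, 46.9, 6.48 and 64.9 RPKM in GRP3 and 58.1, 48.7, 24 and 30 in NSC, so the populations overlapped.

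Lists for cells outside the neural lineage were read beside these calls. Meningeal and perivascular fibroblast genes summed to 274, 184, 60 and 222 RPKM in GRP3 1 to 4 and to 33.4 to 50.7 in NSC. Of 15 tested, 6 rose without batch 3 and 0 over 4 batches (1.24% and 0.0523% of all tested genes did). Dcn, a matrix proteoglycan of fibroblasts, was at 24.6, 30.9, 9.5 and 39 RPKM in GRP3 and 0, 0.096, 5.99 and 0.977 in NSC (4.63 ± 0.55, adjusted p = 0.00751), and Col1a1, Col3a1, Slc6a13, Ptgds and Igf2 were the others. Pericyte and smooth muscle genes gave 0 calls of 8, with sums of 21.1 to 143 RPKM in GRP3 and 24 to 128 in NSC. In the NSC libraries, endothelial genes were higher in batches 1 and 2, with sums of 451, 215, 37.7 and 80.9 RPKM against 106, 106, 28.7 and 73.8 in GRP3. There the tight junction gene Cldn5 and the vascular gene Egfl7 fell in GRP3 and the lipid transporter Mfsd2a rose, of 11 tested without batch 3. In that fit 3.86% of all tested genes fell and 1.24% rose. The choroid plexus marker Ttr stayed at or below 2.84 RPKM in all 8 libraries, while Otx2, Folr1 and Clic6, the 3 tested genes of that list, fell without batch 3 and Otx2 also over 4 batches. The part of these other cells in the rises and falls was not tested.

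The falls were led by genes of the motile cilium and of ependymal cells. The 15 largest over 4 batches, all lower in GRP3 in each batch, were Crygn, Fam183b, Dynlrb2, Meig1, Ccdc153, Gm16006, Tmem212, 1700012B09Rik, Rsph1, Lrrc23, 1700007G11Rik, Ccdc113, 1110017D15Rik, 1700007K13Rik and Cfap126. Crygn (chromosome 5, 24751003-24758008), a crystallin gene that marked ependymal cells in the list used here, was at 2282, 7890, 359 and 6068 RPKM in NSC (mean 4150 ± 3441 SD, n = 4) and at 1.88, 4.17, 0 and 21.5 in GRP3 (mean 6.88 ± 9.87 SD, n = 4). The lowest NSC library was far above the highest GRP3 library. The difference was -9.19 ± 0.50 (95% interval -10.37 to -8.02, adjusted p = 0.00334). Rsph1 (chromosome 17, 31255019-31277383), a component of the radial spoke head, was at 682, 1647, 114 and 483 RPKM in NSC and 1.27, 0.75, 0.384 and 0.921 in GRP3 (-8.12 ± 0.58, adjusted p = 0.00354). Gm16006 is annotated as antisense, and the strand setting of the counting was not given in the sources used here, so its reads and those of an overlapping gene cannot be told apart.

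The promoters of 3 of these genes are shown because they fell together, and were picked for holding GTTGCC, the letters of 1 arm of the X-box that RFX factors bind. Each run is the 250 bases before the RefSeq start (GRCm38.p6), read 5′ to 3′ on the strand of the gene, with the letters GTTGCC and their reverse complement GGCAAC in capitals. The windows are chr11:58801961-58802210 (minus strand) for Fam183b, chr9:44240427-44240676 (plus strand) for Ccdc153 and chr6:124779728-124779977 (minus strand) for Lrrc23.
Fam183b: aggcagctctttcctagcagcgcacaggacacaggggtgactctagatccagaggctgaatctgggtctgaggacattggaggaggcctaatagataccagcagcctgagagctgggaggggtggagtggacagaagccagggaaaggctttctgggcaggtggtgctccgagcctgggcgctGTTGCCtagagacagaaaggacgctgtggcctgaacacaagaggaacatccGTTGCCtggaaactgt
Ccdc153: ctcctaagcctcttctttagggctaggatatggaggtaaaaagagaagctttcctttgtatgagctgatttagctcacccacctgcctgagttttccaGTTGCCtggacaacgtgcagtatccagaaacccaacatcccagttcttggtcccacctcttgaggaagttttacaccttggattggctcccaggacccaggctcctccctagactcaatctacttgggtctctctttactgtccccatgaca
Lrrc23: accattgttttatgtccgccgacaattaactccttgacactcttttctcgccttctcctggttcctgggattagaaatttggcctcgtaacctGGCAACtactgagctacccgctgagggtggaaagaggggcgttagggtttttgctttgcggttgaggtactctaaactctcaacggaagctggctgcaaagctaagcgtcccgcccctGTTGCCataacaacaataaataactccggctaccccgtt
The letters were found on either strand in 6 of the 12 promoters matched among the 15 largest falls, and in 16 of 45 matched promoters of the tektin, radial spoke, central pair and CFAP list (35.6%). They were in 6 of 29 for the axonemal dyneins (20.7%) and in 2833 of all 27025 promoters in the table (10.5%). The full X-box, a longer palindrome around the same letters, was searched in 1 form only, with a spacer of fixed length and 1 free base in the second arm. That form was in 66 of all promoters (0.244%) and in 0 of the 12, 0 of the 45 and 0 of the 29. Other spacer lengths and other spellings of the second arm were not searched. The 0 counts therefore do not show that these promoters lack a second arm. A match describes the letters of a window and not a bound site.

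Fam183b, a gene of motile ciliated cells, was at 839, 2805, 403 and 1147 RPKM in NSC and 0.387, 0.38, 0.685 and 13.2 in GRP3. Ccdc153, an axonemal coiled-coil protein, was at 676, 4201, 279 and 357 RPKM in NSC and 1.53, 1.09, 0.188 and 2.3 in GRP3. Lrrc23, of the radial spoke, was at 574, 1189, 170 and 392 RPKM in NSC and 0.619, 0.562, 0 and 2.07 in GRP3. None of the 3 overlapped between the populations in any batch, and each fell over 4 batches, by -8.62, -8.42 and -8.12. Batch 3 showed the same pattern at a lower NSC level.

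Falls were called in every ciliary list. Among multiciliation regulators, 5 of 17 tested fell over 4 batches and 7 without batch 3 (2.41% and 3.86% of all tested genes did). Foxj1 (chromosome 11, 116330704-116335399), the master factor of motile cilia, was at 141, 352, 34.3 and 33.1 RPKM in NSC and 1.24, 0.674, 0.0714 and 1.66 in GRP3 (-5.61 ± 0.66, adjusted p = 0.0091). Mcidas, which starts the programme, Myb, which acts early in it, Rfx2 and the deuterosome gene Ccdc67 fell with it. Rfx3 was at 26, 13.3, 1.24 and 10.5 RPKM in NSC and 4.73, 9.88, 0.247 and 5.36 in GRP3 and did not pass (-1.08 ± 0.46, adjusted p = 0.262).

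Of 29 axonemal dyneins and assembly factors, which make and mount the motors, 22 fell over 4 batches, where 2.41% of all tested genes did. The median over the list was -3.37, -4.59, -1.58 and -3.63 in batches 1 to 4. Dnali1, an inner arm light chain, was at 169, 343, 32.3 and 49.3 RPKM in NSC and 0.185, 0.152, 0.00643 and 1.55 in GRP3. Of 48 tektin, radial spoke, central pair and CFAP genes, 43 fell over 4 batches and 45 without batch 3 (2.41% and 3.86% of all tested genes did). The list summed to 8415, 24653, 2326 and 8579 RPKM in NSC against 103, 78.1, 46.1 and 179 in GRP3. Tekt1, of the doublet microtubule, was at 66.9, 327, 15.6 and 115 RPKM in NSC and 0.666, 0.541, 0 and 0.69 in GRP3.

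Intraflagellar transport, BBSome and transition zone genes, which primary cilia also use, fell in 12 of 43 cases over 4 batches, where 2.41% of all tested genes did. The medians of the list were -2.30, -1.89, -1.06 and -1.91 in batches 1 to 4. Ift43 was at 857, 937, 76.1 and 337 RPKM in NSC and still at 44, 37.2, 9.52 and 47.9 in GRP3 (-3.63 ± 0.46, adjusted p = 0.0107). The motor subunit Kif3a did not pass, at 134, 81.9, 30.7 and 34.9 RPKM in NSC and 50.7, 52.6, 20.1 and 16.3 in GRP3. Of 10 ependymal genes outside the cilium, 8 fell in both fits (2.41% of all tested genes fell over 4 batches and 3.86% without batch 3). The ependymal list summed to 7272, 17261, 1128 and 11685 RPKM in NSC and 115, 91.6, 258 and 142 in GRP3. Of the sum of GRP3 3, Cd24a, which immune cells also express, made up 244 RPKM. Mia, a secreted protein, was at 179, 581, 56.4 and 412 RPKM in NSC and 0.968, 0.716, 0 and 4.83 in GRP3, and Hdc, which makes histamine, at 1360, 745, 27.8 and 57.6 against 0.791, 1.4, 1.65 and 3.65. Some members of this list, such as Crygn, Calml4 and Tm4sf1, were taken from the study's own results on these libraries, so its counts are not independent evidence.

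**Figure D3:**
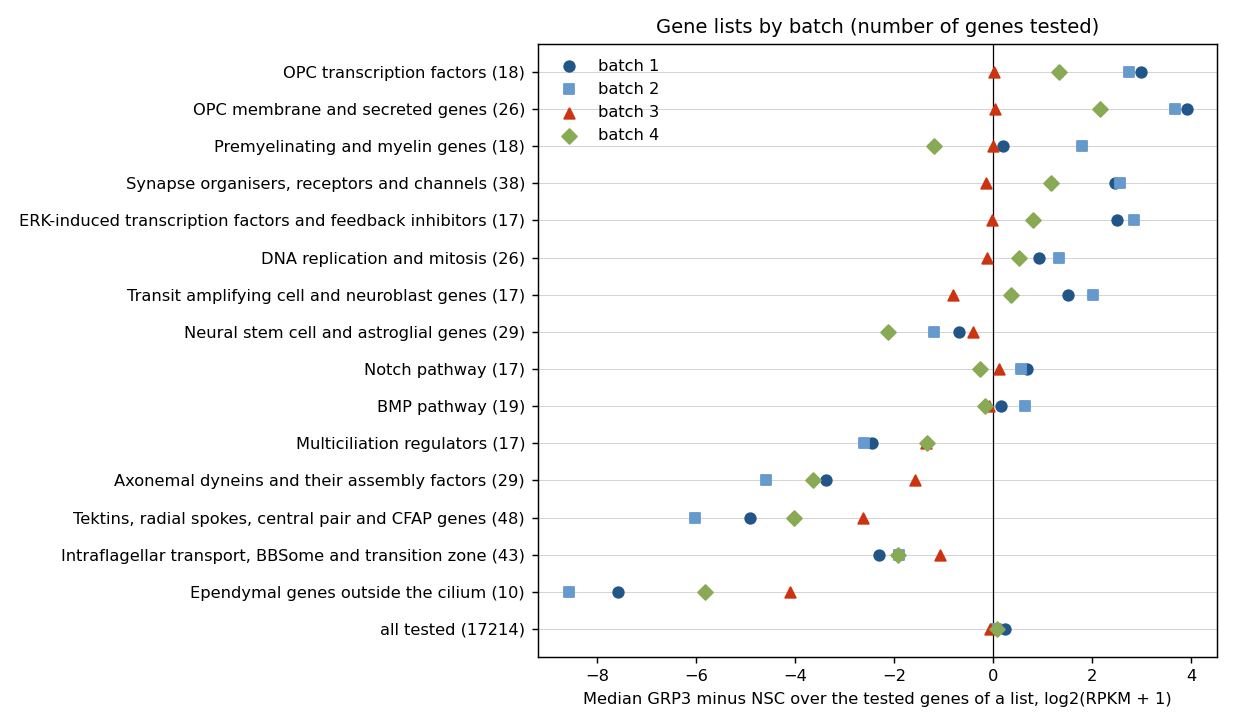
Median GRP3 minus NSC difference, on the log2(RPKM + 1) scale, over the tested genes of 15 lists and over all 17214 tested genes, with 1 point per batch. The OPC, synaptic and ERK lists lie above 0 in batches 1, 2 and 4 and near 0 in batch 3. The ciliary and ependymal lists lie below 0 in all 4 batches, with batch 3 at -2.63 for the tektin list and -4.10 for the ependymal list.

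Stem cell and astroglial genes split within their list. Of 29 tested, 3 fell over 4 batches and 9 without batch 3 (2.41% and 3.86% of all tested genes did), and none rose. Id4 (chromosome 13, 48261228-48266026) was at 520, 290, 12.4 and 193 RPKM in NSC and 16.9, 33, 0.0429 and 8.13 in GRP3, lower in each batch (-4.01 ± 0.43, adjusted p = 0.00785). Gja1, the astroglial gap junction protein, was at 58.1, 63.9, 10.6 and 353 RPKM in NSC and 4.69, 4.76, 3.02 and 34.8 in GRP3 (-2.92 ± 0.47, adjusted p = 0.0247), and the forebrain factor Emx1 also fell. Gfap, Aqp4, Hopx, Vim, Apoe and Clu fell without batch 3 only.

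Vim, the intermediate filament of radial glia and of many other cells, was at 245, 580, 911 and 313 RPKM in NSC and 22.8, 40.6, 994 and 35.8 in GRP3. Apoe, a lipid carrier of astroglia and macrophages, was at 793, 2970, 6332 and 2708 RPKM in NSC and 248, 156, 7184 and 306 in GRP3. For both, the populations were apart in batches 1, 2 and 4 and differed by 0.13 and 0.18 on the log2 scale in batch 3, at the highest levels of any batch. The myeloid lists were high in the same batch, and the part of those cells was not tested. Sox2, a factor of stem cells and progenitors, was at 219, 231, 1.19 and 23.6 RPKM in GRP3 and 183, 135, 19.8 and 88.1 in NSC (-1.02 ± 0.69, adjusted p = 0.462). It was not called, nor was the lipid-binding protein gene Fabp7, at 10174, 14732, 196 and 3300 against 3508, 4555, 228 and 3469 (0.74 ± 0.49, adjusted p = 0.456).

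Among the genes the study itself names for GRP3, which were chosen on these libraries and are no independent evidence, 19 were tested. Over 4 batches 1 rose and 5 fell (0.0523% and 2.41% of all tested genes did). In batches 1, 2 and 4 there were 7 rises and 6 falls, where 1.24% of all tested genes rose and 3.86% fell. Besides genes given above, Dmrtb1, a DM-domain factor, was at 87.1, 82.3, 0.392 and 9.48 RPKM in GRP3 and at most 1.84 in NSC (4.42 ± 0.85 without batch 3, adjusted p = 0.032), and the RNA-binding protein gene Igf2bp3 at 10.4, 9.93, 0.356 and 5.76 against at most 1 (2.63 ± 0.51, adjusted p = 0.0321). Gpr155, Sox12, Zfp157 and Tcf12 missed the threshold in both fits, with differences of 1.56 to 2.45 without batch 3.

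The other 6 of the 9 rises over 4 batches were of a different kind. There were 3 small nucleolar RNAs, a class that guides the modification of other RNAs, 1 processed pseudogene (Gm11694) and the little-studied protein-coding genes Gm10401 and 1700092M07Rik. Snord35a was at 71.1, 35, 92.6 and 49.1 RPKM in GRP3 and 0, 9.25, 0 and 0 in NSC (5.04 ± 0.79, adjusted p = 0.0235). Gm24888 was at 106, 105, 80.4 and 73.5 RPKM in GRP3 and 16.1, 0, 0 and 0 in NSC, and Gm24620 at 17.7, 13.1, 99.8 and 26.5 with all 4 NSC libraries listed at 0. These 3 separated the populations in batch 3 as well. RPKM divide reads by gene length, so for short RNAs such levels can rest on few reads. Read counts were not given in the sources used here, and the libraries were made from amplified polyA RNA. Small RNAs were 317 of the 17214 genes tested (1.84%).

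Batch 3 was then read on its own. The spread of the GRP3 minus NSC differences over all tested genes, as the interquartile range, was 1.7, 2.12 and 1.21 in batches 1, 2 and 4 and 0.489 in batch 3. Across genes, GRP3 and NSC correlated at r = 0.928 in batch 3 and at 0.652 to 0.773 in the other batches, a description over 17214 genes of the same pair of libraries. Differences of 2 or more on the log2 scale were counted in 96 genes upward and 628 downward in batch 3. The upward ones were mostly not protein coding (9 of 96 were, 9.38%, and 31 were small RNAs, 32.3%). Of the 628 downward ones, 413 were protein coding (65.8%) and 63 were small RNAs (10%). Over all tested genes, 77.9% were protein coding and 1.84% were small RNAs.

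The calls made in batches 1, 2 and 4 were followed into the libraries of batch 3. Those libraries did not enter the fit, but they did enter the filter on low values. The genes read there were thus chosen partly by their batch 3 levels, and the shares are not independent of batch 3. Of the 665 falls, 601 were also negative in batch 3 (90.4%, against 55.8% of all tested genes), and 429 fell by 1 or more there (64.5%, against 9.79%). Their median was -1.53 in batch 3 and -3.5, -4.29 and -3.12 in batches 1, 2 and 4, and their median level in NSC 3 was 7.74 RPKM. Of the 213 rises, 103 were positive in batch 3 (48.4%, against 39.4% of all tested genes), and 13 rose by 1 or more (6.1%, against 1.84%). Their median was 0 in batch 3 and 3.39, 3.48 and 2.3 in the others, and 121 of the 213 were below 1 RPKM in both batch 3 libraries.

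**Figure D4:**
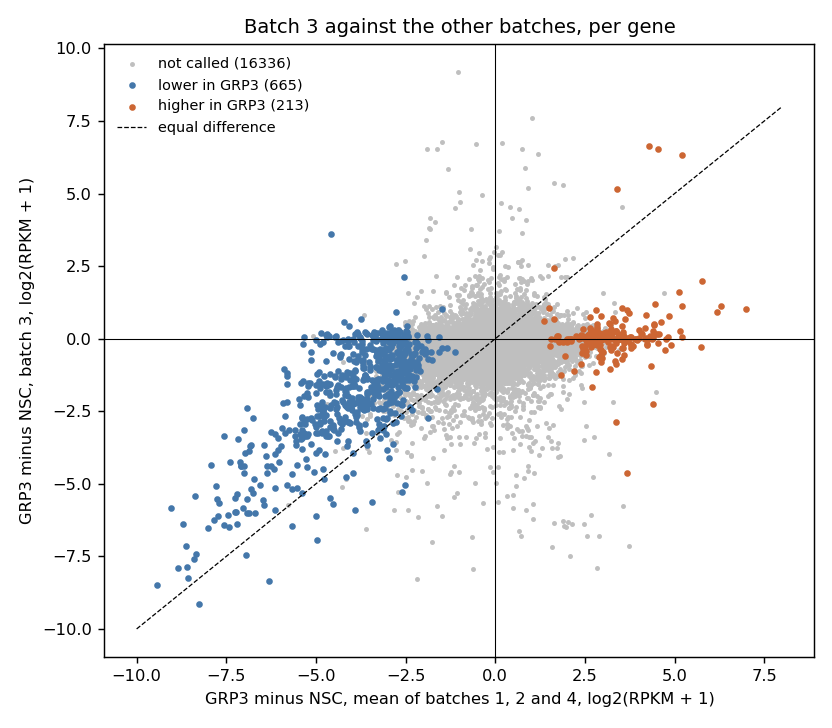
GRP3 minus NSC difference of each tested gene in batch 3 (vertical axis) against the mean of batches 1, 2 and 4 (horizontal axis), both on the log2(RPKM + 1) scale, with genes called in batches 1, 2 and 4 in colour and the line of equal differences dashed. The 665 falls (blue) lie mostly below 0 in batch 3, and the 213 rises (orange) lie on both sides of 0 in batch 3, with 13 of them at 1 or more.

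A direct test of batch 3 against batches 1, 2 and 4, with 1 pair against 3, called no gene (0 of 17214, 0%), and 729 had an unadjusted p under 0.05, 274 of them with a higher and 455 with a lower difference in batch 3. The smallest adjusted p was 0.999. The 5 genes of smallest p were all noncoding RNAs, Gm25177, n-R5s13, mmu-mir-684-2, AC122804.1 and Gm23119, each at 0 RPKM in at least 1 of the batch 3 libraries. Pdgfra differed between batch 3 and the others by -5.96 and Vim by 3.55, and neither passed (adjusted p = 0.999 for both). The growth cone gene Gap43, chosen after its values were seen, was at 877, 1162, 1.6 and 723 RPKM in GRP3 and 127, 74.6, 17.8 and 68.7 in NSC. It was higher in GRP3 in batches 1, 2 and 4 (3.37 ± 0.52, adjusted p = 0.0148) and lower in batch 3, by -2.86, a description with no test.

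PFMP, sorted from the same CD140a+ and NG2+ gate but with CD15, was the population most like GRP3 by gate. Paired over 4 batches, 1 of 15144 genes was called (0.0066%), and 289 had an unadjusted p under 0.05. The call was the 5S ribosomal RNA copy n-R5s205, at 18.5, 13.6, 20.2 and 28.7 RPKM in GRP3 and 0 in all 4 PFMP libraries. As a short RNA, it can reach such levels on few reads. Pdgfra differed by 0.51 (-0.57 to 1.60), Olig1 by 0.43 (-0.61 to 1.47) and Cspg4 by 0.52 (-0.68 to 1.73) (95% intervals in parentheses), and each interval reached past 1 upward. In PFMP 3, Pdgfra was at 3.84 RPKM, against 96.9 to 658 in the other PFMP libraries.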

How the data were processed

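Per the study's methods, sorted cells were lysed, polyA RNA was amplified (MessageAmp II) and TruSeq libraries were run on a NextSeq500. The authors ran FastQC 0.11.9 for read quality, cutadapt 3.4 for trimming, STAR 2.6.1 for alignment (GRCm38), Salmon 1.9.0 for abundance and DESeq2 1.26.0 for testing, after excluding low-quality experiments. The deposited values are RPKM made by the authors, with the gene lengths, read totals and strand setting not given in the sources used here. The table also had 26 unnamed columns that were not used. RPKM are not counts, so no count test, counting interval or floor was given, and depth limits precision only as the estimates in the text show.

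The values were taken as log2(RPKM + 1), which understates changes of low genes, and fitted with limma 3.58.1 in R 4.3.3 (lmFit, eBayes with a trended prior) with batch as a block. A gene entered if 4 or more of the 8 libraries compared held it at 1 RPKM or more, and p-values were adjusted by Benjamini-Hochberg over all of them, with 0.05 as the threshold. The fits were over 4 batches, over batches 1, 2 and 4, for the difference of batch 3 from the others, and for GRP3 against PFMP. The batch numbers came from the table. After the mean of each population was removed, GRP3 and NSC correlated at 0.412, 0.216, 0.792 and 0.692 within batches 1 to 4, so the numbers were taken as pairing the samples, although GRP3 2 with NSC 1 (0.713) and GRP3 1 with NSC 2 (0.498) were higher than the pairs of batches 1 and 2.

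Named genes were the sorting antigens and the genes the study names for GRP3, the 15 largest rises and falls over 4 batches with 1 sign in all batches (9 rises existed), the 5 smallest p-values of the batch 3 test where none passed, and list members. Neto1, Dscam, Ncan, Ptprz1, Trem2, P2ry12, Gap43 and other list members that set a list apart were chosen after their values were seen. Members and all 26 lists were chosen with earlier results of these data known. Positions are of GENCODE vM21 (GRCm38) and promoters of RefSeq (GRCm38.p6). Some genes of the lists are not reported here. The fits were tested on simulated data. Tables and plots were made with Python 3.11.15, pandas 2.3.3 and matplotlib 3.10.9. The settings varied were the pseudocount (0.1), the filter (none, or a mean RPKM of 5 or more), median-of-ratios scaling, no block, all 20 libraries in the model and each batch left out.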

Additional observations from a re-analysis of the deposited data

Results flagged for a closer look

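Within each population, the level of each gene was checked for a library far from the other 3, on the log2(RPKM + 1) scale. The measure is the gap from the extreme library to its nearest neighbour as a share of the whole range of the 4. Of 212 gene and population groups looked at, 28 passed Dixon's 95% limit. Chance gives about 1 in 20 for normally distributed values. Where 3 libraries were at 0 (Gm11694, Gm24888 and Snord35a in NSC), the share is 1 for any level above 0 in the remaining library. Those flags were fixed in advance. Many of these genes were chosen for differences or are co-regulated, so the groups are not independent. No explanation was tested.

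GRP3 3 was the low library in 12 cases. Sox8 was at 0.709 RPKM in GRP3 3 and at 27.3 to 37.6 in the other 3 (share 0.9). For Cntn1 the values were 0.602 RPKM against 137 to 241 (share 0.888). For Pcdh15 the values were 0.223 RPKM against 72.6 to 111 (share 0.908). For Gria3 the values were 0.0507 RPKM against 34.5 to 39.7 (share 0.963). For Lrrtm3 the values were 0.0236 RPKM against 22.6 to 30.1 (share 0.92). For Top2a the values were 6.48 RPKM against 46.9 to 64.9 (share 0.854). For Gap43 the values were 1.6 RPKM against 723 to 1162 (share 0.923). For Emx1 the values were 0 RPKM against 2.82 to 3.59 (share 0.88). For Slc1a3 the values were 0.296 RPKM against 63 to 116 (share 0.866). For Sox9 the values were 0.393 RPKM against 49.9 to 65.4 (share 0.931). For Ift43 the values were 9.52 RPKM against 37.2 to 47.9 (share 0.84). For Meig1 the values were 0 RPKM against 2.01 to 2.7 (share 0.842).

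NSC 3 was the low library in 5 cases. Olig1 was at 1.22 RPKM in NSC 3 and at 9.47 to 11.5 in the other 3 (share 0.898). For Aqp4 the values were 1.37 RPKM against 23.1 to 30.2 (share 0.9). For Fabp7 the values were 228 RPKM against 3469 to 4555 (share 0.909). For Tm4sf1 the values were 48.5 RPKM against 690 to 1090 (share 0.852). For Igf2 the values were 0.67 RPKM against 5.16 to 5.89 (share 0.921). Vim was at 994 RPKM in GRP3 3 and at 22.8 to 40.6 in the other 3 (share 0.85).

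GRP3 4 was the high library in 5 cases. Gja1 was at 34.8 RPKM in GRP3 4 and at 3.02 to 4.76 in the other 3 (share 0.835). For Ccdc67 the values were 2.14 RPKM against 0 to 0.0784 (share 0.934). For Fam183b the values were 13.2 RPKM against 0.38 to 0.685 (share 0.915). For Dynlrb2 the values were 13.5 RPKM against 0.465 to 0.886 (share 0.89). For Cfap126 the values were 3.17 RPKM against 0.177 to 0.284 (share 0.932). NSC 4 was the high library in 3 cases. Spry4 was at 4.94 RPKM in NSC 4 and at 0.00347 to 0.293 in the other 3 (share 0.857). For Gsx1 the values were 1.79 RPKM against 0 to 0.138 (share 0.874). For Gm11694 the values were 12.4 RPKM against 0 (share 1). Gm24888 was at 16.1 RPKM in NSC 1 and at 0 in the other 3 (share 1). Snord35a was at 9.25 RPKM in NSC 2 and at 0 in the other 3 (share 1).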

How the results depend on the processing

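Every gene called between GRP3 and NSC kept its direction under each alternative in which it was tested, but most of this was fixed in advance. Another filter, no block or all 20 libraries leave the fitted difference as it was. All 9 rises and 414 falls over 4 batches had 1 sign in every batch, so leaving a batch out could not turn them. Counts did move. For the 9 rises and 414 falls over 4 batches, a pseudocount of 0.1 gave 20 rises, a mean RPKM of 5 or more gave 3 and 237, all 20 libraries in the model gave 138 and 780, and leaving out each batch gave 1 to 213 rises and 45 to 665 falls. For the 213 rises and 665 falls of batches 1, 2 and 4, the pseudocount gave 96 rises, the stricter filter 34 and 202, and leaving out each batch 0 to 73 rises and 0 to 388 falls. Without a filter, with 41463 genes tested, every fit gave 0 calls. The batch 3 test gave 1 call with all 20 libraries (Gm27857, adjusted p = 0.0467) and 0 otherwise. The 1 call against PFMP became 0 under every alternative except the pseudocount. Without the replicate block, that is without pairing by batch, 3 rises and 140 falls were called over 4 batches, and the counts of batches 1, 2 and 4 stayed within 1.5 times (189 and 501). The cause was not tested for any of these. Signs turned only in genes that were not called. With each batch left out, the differences over 4 batches ran from -0.66 to 0.65 for Mbp and -0.59 to 0.35 for Top2a. Those over batches 1, 2 and 4 ran from -0.99 to 0.97 for Mbp, -0.24 to 0.62 for Fut4, -0.01234 to 0.56 for Top2a and -0.80 to 0.51 for Sox2. RPKM without read totals give no counting error for low genes.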
